A study of Mus musculus with 72 samples.

Results

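The comparison describes the hypothalamus of adult B6 mice in which the noncoding element named E4 was knocked out, set against wild type mice labelled E4, all kept without food, but with water, for 72 h. Its members were chosen by their labels: 3 knockout libraries (KO_197, KO_198 and KO_199) and 4 wild type libraries (WT_196, WT_202, WT_216 and WT_221), 7 of the 72 libraries of the series. Each library is total RNA of 1 hypothalamus sample, read as counts per gene. E4 is 1 of 5 elements that the study took from conserved noncoding sequence tied to hibernation; the labels give neither its position nor the bases removed, and the names of some deposited tables include Fto. No transcript could therefore serve as a check of the deletion. Fed E4 mice (4 knockouts and 4 wild types) and the 27 fasted libraries of the other 4 elements were used only to set these values in context. The labels do not say that each library came from its own mouse or how many founders the knockout line has, so p-values measure the spread between these libraries, which may be partly technical.

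The hypothalamus reads salt, fuel and hormone levels in the blood and sets water balance, feeding, stress and temperature responses. Its large neurosecretory neurons make vasopressin and oxytocin and send them to the posterior pituitary; other neurons release peptides that start or stop feeding. Astrocytes and tanycytes around them clear transmitters and pass on signals from the blood, and the tissue borders the meninges, the third ventricle and the pituitary stalk, whose cells can enter a dissection.

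The library of KO_197 stood apart. It held 5517552 counts, against 19168471 and 22853472 in the other 2 knockouts and 14310904 to 18147973 in wild types. Its 10 most abundant genes took 36.3% of its counts, a share that was 4.35 to 4.67% in each of the other 6 libraries. Cdk8 alone, a kinase of the transcription mediator complex, took 8.71% of KO_197 and no more than 0.0115% elsewhere. The other leading genes were D130009I18Rik (7.65%), Sspn (6.53%), Arhgap21 (5.29%), Lars2 (3.28%), Zc3h7a (1.55%), Jarid2 (1.12%), Gphn (0.771%), Camk1d (0.756%) and Peak1 (0.69%). KO_199 stood apart in pituitary transcripts, with Gh, the growth hormone gene, at 3676 scaled CPM (CPM over the library total times its normalization factor), against 26.6 in KO_197, 0 in KO_198 and 1.11 to 105 in wild types. KO_198 and, less so, KO_197 carried liver transcripts, with Alb at 97.2 and 42.4 scaled CPM, against 1.25 in KO_199 and 0.0556 to 6.59 in wild types. Estimates are therefore given from all 7 libraries, with the value without KO_197, or without another library that moves it, beside many of them. Since tissue was sequenced in bulk, fewer cells of a type and less RNA per cell cannot be told apart. No source used here gives the strand of the reads, and 54 of the 156 genes named by the rule overlap a gene on the other strand, so part of their counts may belong to it.

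No gene passed the test between fasted E4 knockouts and wild types. With edgeR's quasi-likelihood test and Benjamini-Hochberg adjustment, 0 of 17929 genes (0%) had an adjusted p under 0.05, and the smallest adjusted p was 0.419. Of all 17929 estimates, 9287 were higher and 8642 lower in knockouts (9057 and 9360 of 18417 without KO_197). At an unadjusted p under 0.05, 830 genes (4.63%) had higher and 854 (4.76%) lower estimates in knockouts. Without KO_197, 0 of 18417 genes (0%) passed, with 796 (4.32%) higher and 899 (4.88%) lower at an unadjusted p under 0.05; the smallest adjusted p, 0.168, was that of Ccn3. All directions below are therefore those of estimates (log2 of knockout over wild type, with its standard error). A gene list is described by its counts beside these shares over all genes, and its members can vary together within a library. The share of all genes whose groups did not overlap was not counted. Genes named for a small p are more likely than others to part the groups, so a lack of overlap is no added support. DESeq2 called 19 of 18775 genes (0.101%), 3 higher and 16 lower, and without KO_197 it called 13 of 17147 (0.0758%), 2 higher and 11 lower. The count also turned on KO_199: without it, edgeR called 23 of 18202 genes (0.126%), all higher in knockouts. Liver and adrenal cortex genes were among them. Their levels rested on KO_197 and KO_198, the knockouts that remained, so no count of them is given. Without KO_198, edgeR called 1 of 18206 genes (0.00549%), Avp, lower in knockouts. With no filter on low counts edgeR called 169 of 29068 genes (0.581%), 108 higher and 61 lower. Liver genes were again among these, and 13 are on the list of meningeal and vascular fibroblast genes. The likelihood ratio test of edgeR, chosen after the deposited table was seen, called 59 of 17929 (0.329%).

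**Figure D1:**
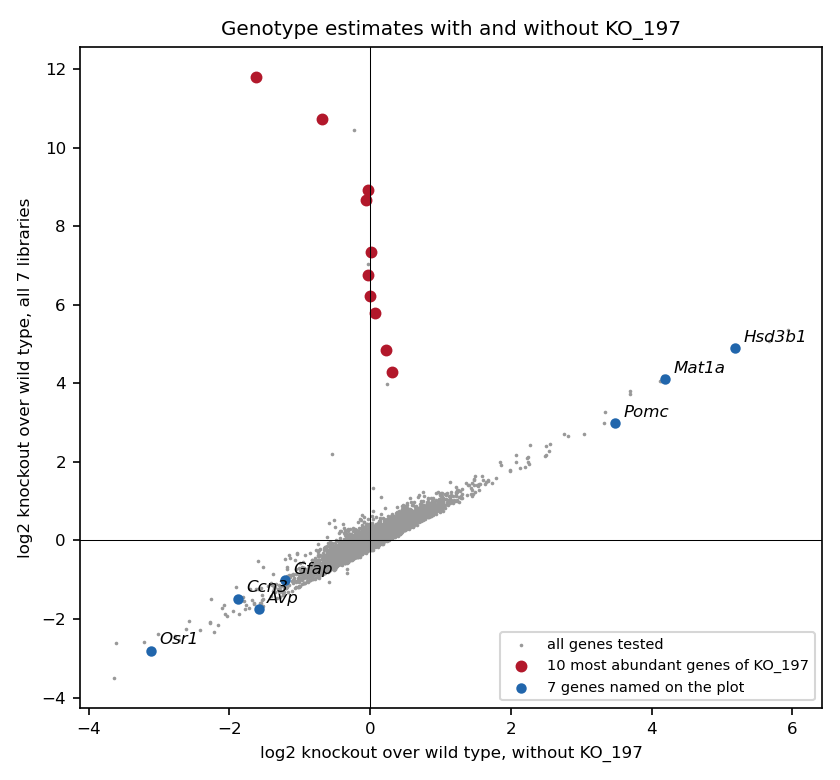
The scatter of genotype estimates sets log2 knockout over wild type from all 7 libraries (y axis) against the same without KO_197 (x axis), a point per gene. The 10 leading genes of KO_197 (red) lie between 4.29 and 11.80 on the y axis and between -1.62 and 0.32 on the x axis, while Avp, Gfap, Ccn3 and Osr1 are lower in knockouts on both.

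Vasopressin had the smallest p among the genes of lower estimate. Avp encodes the precursor of arginine vasopressin, the antidiuretic hormone, and Oxt that of oxytocin; the genes are neighbours on chromosome 2 (mm10, Avp at chr2:130580620-130582554 on the minus strand, Oxt at chr2:130576173-130577054 on the plus strand), 3565 bases apart. Their promoters are shown because these are the peptide genes of lower estimate that share a neurosecretory system. They are the RefSeq windows on GRCm38.p6 from 250 bases before to 50 after the annotated start, read 5′ to 3′ along each gene, Avp from chr2:130582539-130582838 and Oxt from chr2:130575919-130576218. Capitals mark the E-box CACGTG, the TATA-like CATAAA and TGACC, found in nuclear receptor sites, each searched on both strands; no 2 matches overlapped.
Avp: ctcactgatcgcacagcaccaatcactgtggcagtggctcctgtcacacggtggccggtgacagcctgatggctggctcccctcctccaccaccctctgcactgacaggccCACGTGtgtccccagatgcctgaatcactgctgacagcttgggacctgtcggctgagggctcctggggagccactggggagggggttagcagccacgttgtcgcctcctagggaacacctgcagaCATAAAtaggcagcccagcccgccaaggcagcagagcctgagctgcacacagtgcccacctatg
Oxt: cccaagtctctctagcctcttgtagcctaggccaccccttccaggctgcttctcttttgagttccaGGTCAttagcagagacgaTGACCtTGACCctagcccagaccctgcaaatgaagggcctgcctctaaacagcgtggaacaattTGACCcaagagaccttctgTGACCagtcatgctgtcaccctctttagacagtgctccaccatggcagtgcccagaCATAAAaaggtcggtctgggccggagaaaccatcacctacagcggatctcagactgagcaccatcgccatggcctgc
The Avp window held CACGTG 139 bases before the start and the Oxt window did not, while the Oxt window held 5 copies of TGACC, none of which the Avp window had. Of 32817 promoter windows of this length, 7.15% held CACGTG, 11.9% CATAAA and 40.5% TGACC. A match describes the letters of the window and no binding.

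Avp was at 44.7, 103 and 43.8 scaled CPM in knockouts KO_197, KO_198 and KO_199, against 218, 145, 274 and 238 in wild types WT_196, WT_202, WT_216 and WT_221. The groups did not overlap: the highest knockout lay below the lowest wild type. The mean was 63.7 ± 33.8 in knockouts (SD, n = 3) and 219 ± 54.3 in wild types (n = 4), a log2 estimate of -1.75 (SE 0.29, 95% interval -2.38 to -1.11). Its adjusted p was 0.419 in edgeR's quasi-likelihood test and 0.0489 in DESeq2, which did not call Avp without KO_197. In edgeR's test the adjusted p ran from 1.125e-07 with no filter on low counts to 0.87 without WT_221. Leaving out each library in turn moved the estimate between -2.31 and -1.5, and without KO_197 it was -1.58 (SE 0.31). In the authors' deposited table, whose log2 values are wild type over knockout, Avp stood at 1.76 with an adjusted p of 0.000702.

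Oxt was at 135, 203 and 115 scaled CPM in knockouts, against 254, 172.1, 246 and 219 in wild types. KO_198 lay above WT_202, so the groups overlapped; the estimate was -0.56 (SE 0.18) and -0.49 (SE 0.21) without KO_197. The transcripts of Avp (577 bases) and Oxt (537 bases) share an identical run of 127 bases, so the split of reads between them is uncertain. Pdyn, the dynorphin precursor made by vasopressin neurons among others, was at 19.8, 23.6 and 19.7 scaled CPM in knockouts, against 27.2, 21.6, 31.8 and 26.9 in wild types. There too KO_198 lay above WT_202, with an estimate of -0.34 (SE 0.14). Otp, a homeobox gene needed for vasopressin and oxytocin neurons to form, was at 51.8, 46.2 and 42.1 in knockouts, against 64.1, 41.8, 65.4 and 63.5 in wild types (-0.35, SE 0.15). On the list of vasopressin neuron and osmotic response genes, 20 of 24 genes were tested; 4 had a lower and 0 a higher estimate at an unadjusted p under 0.05, and the list median was -0.02, against 0.01 over all genes tested; with each library left out it lay between -0.10 and 0.02.

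**Figure D2:**
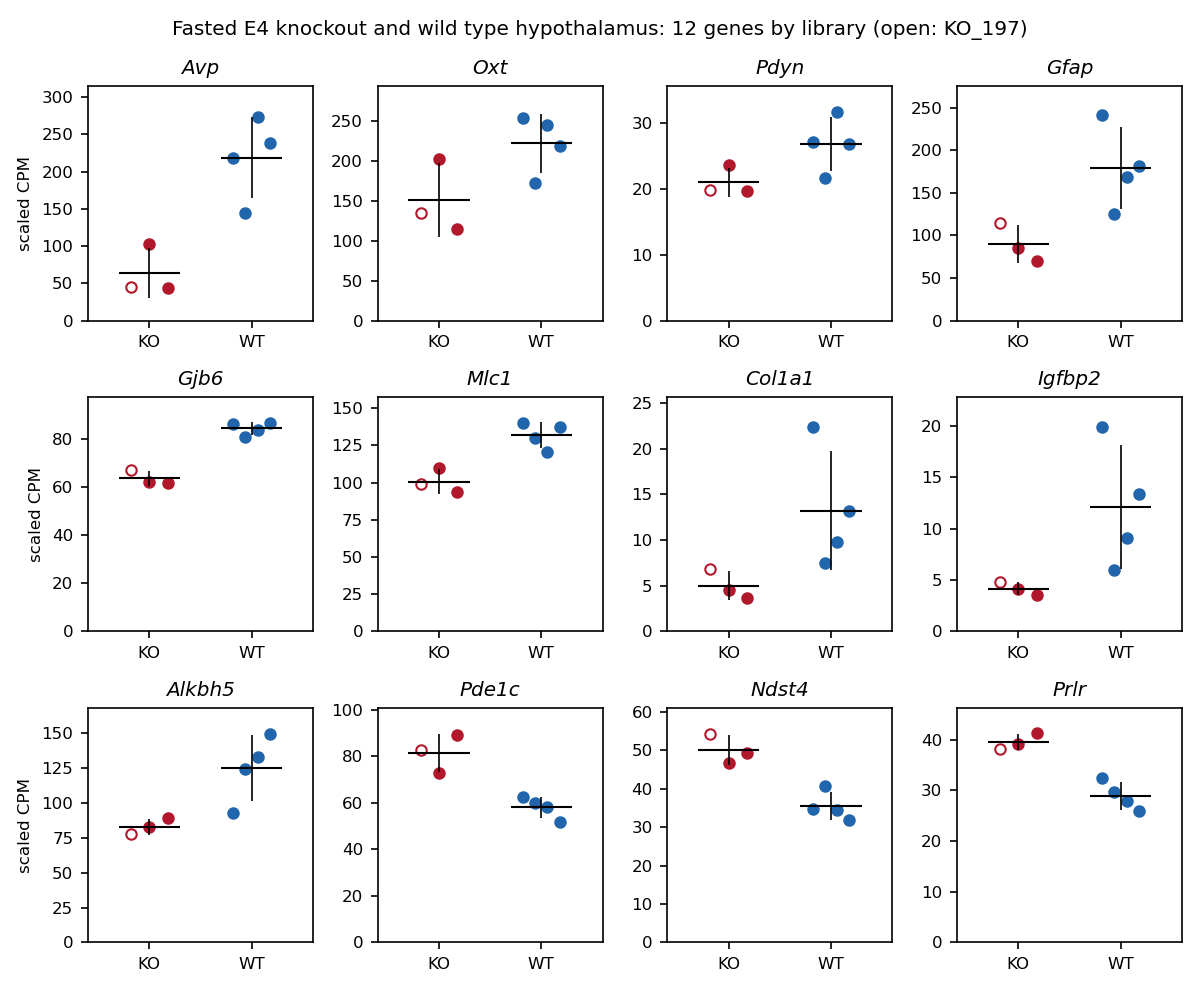
The plot of levels by library shows scaled CPM of 12 genes in fasted E4 knockouts (left of each panel, red, KO_197 open) and wild types (right, blue), with the mean (horizontal bar) and SD (vertical bar); all axes start at 0. Avp, Gfap, Gjb6, Mlc1, Col1a1, Igfbp2 and Alkbh5 are lower and Pde1c, Ndst4 and Prlr higher in all 3 knockouts than in any of the 4 wild types, while Oxt and Pdyn overlap.

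Of the other hypothalamic peptide genes most did not part the groups. Of 43 listed, 36 were tested; 20 estimates were lower and 16 higher, 6 and 2 of them at an unadjusted p under 0.05, with a median of -0.05 (-0.12 without KO_197; 0.03 without KO_199). Beside Avp, Oxt and Pdyn the 6 were Hcrt, Tac1 and Vip. Hcrt, the precursor of the wake-promoting orexins, was at 80.3, 99.6 and 64 scaled CPM in knockouts, against 116, 86.7, 123 and 125 in wild types (-0.47, SE 0.16). Tac1, the substance P precursor, was at 17.8, 18.7 and 20.2 in knockouts, against 24.9, 21, 31.3 and 25.6 in wild types (-0.43, SE 0.14). Vip was at 2.26, 2.46 and 1.45 in knockouts, against 4.62, 2.97, 4.07 and 4.18 in wild types (-0.97, SE 0.28). For Tac1 and Vip the groups did not overlap, and for Hcrt KO_198 lay above WT_202.

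The 2 peptide genes of higher estimate at that p were Crh and Pomc. Crh, which drives the stress axis, was at 6.22, 5.17 and 7.73 scaled CPM in knockouts, against 4.51, 3.45, 3.81 and 5.51 in wild types (0.56, SE 0.23). Pomc, the precursor of melanocortins, was at 18.9, 5.41 and 462 in knockouts, against 20.1, 8.06, 46.2 and 10.3 in wild types; its estimate of 2.99 (SE 1.05) became -1.11 without KO_199, the library with the pituitary transcripts Gh and Prl. The hunger peptides gave intervals that included 0: Npy had an estimate of -0.35 (SE 0.37; -0.85 to 0.05 when each library was left out) and Agrp of 0.39 (SE 0.18). The interval of Agrp reached only to -0.01. Agrp was at 5.94, 5.33 and 6.81 scaled CPM in knockouts, against 4.39, 4.77, 4.97 and 4.34 in wild types, without overlap. Cartpt, Gal, Sst, Trh and Adcyap1 had estimates of -0.37 (SE 0.21), -0.33 (0.17), -0.23 (0.21), -0.21 (0.18) and -0.24 (0.12); without KO_197 these were -0.52, -0.23, -0.48, -0.38 and -0.27. Pmch, Penk, Pnoc, Tac2, Nucb2, Nxph4 and Cbln4 lay between -0.11 and 0.20, with standard errors of 0.11 to 0.22, and without KO_197 between -0.22 and 0.13.

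Astrocyte genes had lower estimates in knockouts throughout the list. All 21 tested genes of 22 listed were below 0, 5 of them at an unadjusted p under 0.05, with a median of -0.17; without KO_197, 20 of 21 were below 0, 14 of them at that p, and the median was -0.29. Without KO_199 the median was -0.05. Gfap, the astrocyte filament that rises in reactive astrocytes, was at 114, 85.4 and 70.2 scaled CPM in knockouts, against 242, 126, 169 and 181.1 in wild types. The groups did not overlap, and the estimate was -1.02 (SE 0.21, adjusted p 0.419 in edgeR's test), or -1.21 (SE 0.21) without KO_197. Gjb6, the gap junction subunit connexin 30, was at 67.3, 62.3 and 61.7 in knockouts, against 86.5, 81, 83.9 and 86.9 in wild types (-0.41, SE 0.08), and DESeq2 called it. Mlc1, a membrane protein of astrocyte endfeet, was at 99, 110 and 93.5 in knockouts, against 140, 130, 121 and 138 in wild types (-0.39, SE 0.09). Fgfr3, a growth factor receptor of astrocytes, was at 112, 162 and 129 in knockouts, against 159, 182, 192 and 207 in wild types, so that KO_198 overlapped the lowest wild type (-0.45, SE 0.13; -0.35 without KO_197).

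The summed level of the astrocyte list did not part the groups, at 6781, 5816 and 4941 scaled CPM in knockouts KO_197, KO_198 and KO_199, against 6224 to 6670 in wild types: KO_197 was the highest of all 7 libraries and the other 2 knockouts the lowest. Among 20 tested genes of reactive astrocytes, 8 had lower estimates and 1, the complement gene C3, a higher one at an unadjusted p under 0.05 (median -0.29; -0.34 without KO_197 and -0.19 without WT_196). Vim, a filament of reactive astrocytes, tanycytes and vessels, was at 19.5, 16.4 and 16.9 in knockouts, against 59.1, 20.1, 29.2 and 33.2 in wild types (-1.03, SE 0.29). Sphk1, a sphingosine kinase, and Aspg, an asparaginase, had estimates of -1.75 (SE 0.57) and -1.06 (SE 0.39), with WT_196 the highest library for each. C3 was at 11.3, 24.6 and 4.01 in knockouts, against 7.68, 2.86, 6.39 and 3.73 in wild types (1.40, SE 0.49), and C3 is made in large amounts by liver, whose transcripts were highest in KO_198. The part of liver transcripts in these values was not tested.

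Genes of meningeal and vascular fibroblasts had the lowest median of the 42 lists. Of 27 tested genes of 30 listed, 26 had lower estimates, 16 of them at an unadjusted p under 0.05, and the median was -1.20; without KO_197 it was -1.35, with 18 at that p, and without WT_196 it was -0.50. The list summed to 668, 471 and 477 scaled CPM in knockouts, against 2224, 631, 694 and 1419 in wild types. Wild types WT_196 and WT_221 stood well above the other 2, and KO_197 lay between wild types WT_202 and WT_216. Col1a1, a chain of type I collagen, was at 6.79, 4.59 and 3.67 in knockouts, against 22.4, 7.53, 9.81 and 13.2 in wild types (-1.53, SE 0.35). Slc47a1, an organic cation exporter, was at 4.81, 0.615 and 0.386 in knockouts, against 11.6, 3.61, 2.84 and 6.96 in wild types (-2.61, SE 0.74; -3.62, SE 0.62, without KO_197). Foxd1, a forkhead factor of stromal cells, was at 2.26, 2.91 and 1.93 in knockouts, against 10.5, 3.61, 5.55 and 6.24 in wild types (-1.42, SE 0.35). The groups did not overlap for Col1a1 and Foxd1, while KO_197 lay among the wild types for Slc47a1. Bmp6 had an estimate of -1.22 (SE 0.33) and Mgp, an inhibitor of calcification in vessel walls, of -1.72 (SE 0.47; -2.10 without KO_197). Ogn, Igf2 and Foxc2 of the list were at 0 counts in all 7 libraries.

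Several genes among those of smallest p were high in the same wild types. Igfbp2, a carrier of insulin-like growth factors, was at 4.81, 4.14 and 3.57 scaled CPM in knockouts, against 19.9, 5.94, 9.1 and 13.4 in wild types, and Osr1, a zinc finger factor of mesenchyme, at 1.41, 0.492 and 0.386, against 7.45, 1.91, 1.61 and 4.4. In both the groups did not overlap, and wild types WT_196 and WT_221 were the highest. Their estimates were -1.59 (SE 0.36) and -2.80 (SE 0.63), and both were among the 19 genes that DESeq2 called, as was Col1a1. Without KO_197 DESeq2 still called Osr1 but not Igfbp2 or Col1a1. Ccn3, a secreted matrix-associated protein, was at 13.9, 5.99 and 3.91 in knockouts, against 23.7, 13.8, 16.1 and 19.5 in wild types (-1.48, SE 0.33; -1.89, SE 0.25, without KO_197), so that KO_197 reached the lowest wild type. Vtn, vitronectin of pericytes, had an estimate of -1.01 (SE 0.31), with WT_196 at 59.6 and knockouts at 21.5, 19.8 and 13.9. Whether the amount of meninges and vessels in each sample moved these genes was not tested; their values and the list's sum ran high in the same 2 wild types.

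The other genes of lowest p and lower estimate were spread over functions and less tied to wild types WT_196 and WT_221. Smpd2, a neutral sphingomyelinase, was at 8.2, 8.98 and 9.42 scaled CPM in knockouts, against 13.8, 13.5, 13.2 and 14.8 in wild types (-0.62, SE 0.13). Crabp1, a retinoic acid binding protein, was at 2.26, 1.31 and 1.79 in knockouts, against 3.95, 3.45, 3.94 and 3.73 in wild types (-1.18, SE 0.26). Myl6, a non-muscle myosin light chain, was at 80, 91.2 and 75.9 in knockouts, against 115, 110, 114 and 106 in wild types (-0.43, SE 0.09). In these 3 the wild types lay close together and above every knockout. Prph, the neuronal filament peripherin, was at 5.37, 3.69 and 4.3 in knockouts, against 9.46, 6.63, 10.6 and 7.91 in wild types (-1.03, SE 0.22). Id3, an inhibitor of helix-loop-helix factors, had an estimate of -1.03 (SE 0.23) and Slc38a2, a neutral amino acid transporter, of -0.55 (SE 0.12), again without overlap between the groups.

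**Figure D3:**
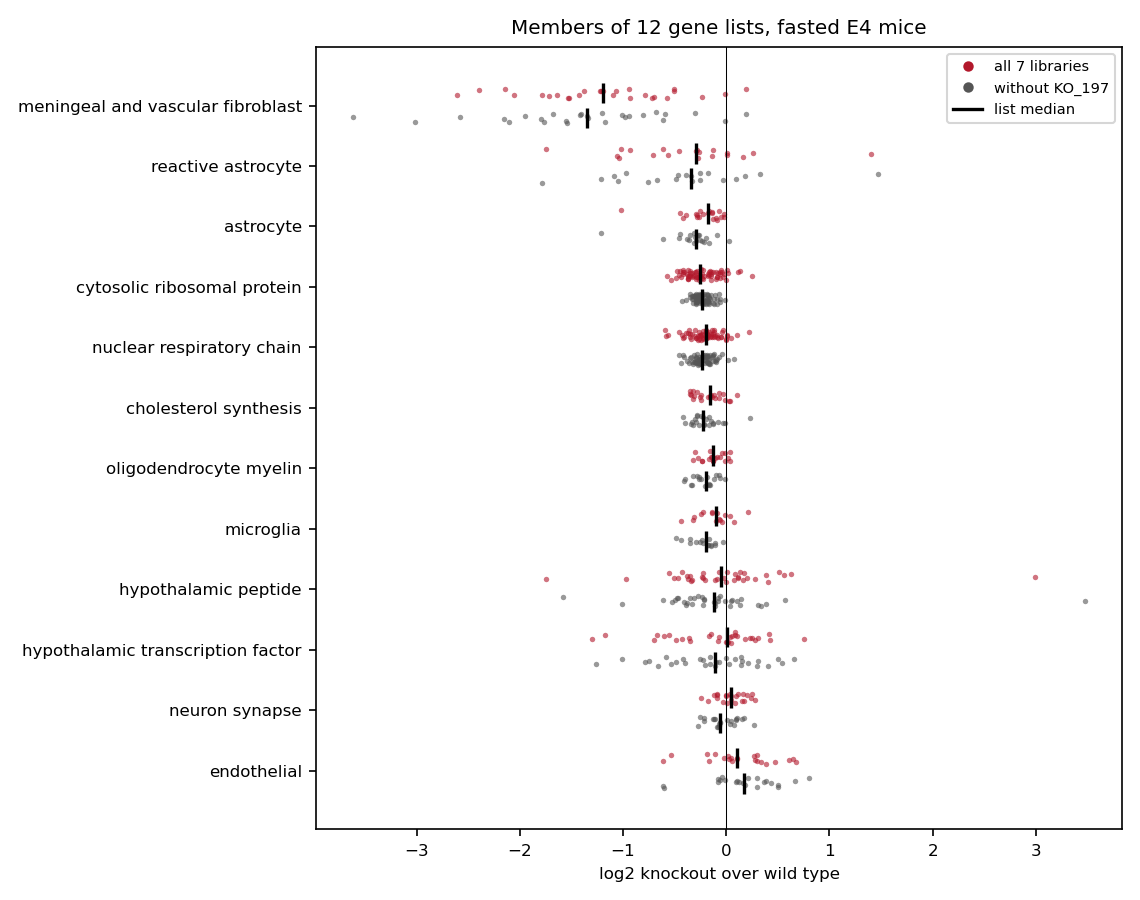
The plot of gene lists shows log2 knockout over wild type (x axis) of each tested member of 12 lists, from all 7 libraries (red) and without KO_197 (grey), with the list median as a black bar. Meningeal and vascular fibroblast genes have the lowest median (-1.20 and -1.35), astrocyte, ribosomal protein and respiratory chain genes lie just below 0, and endothelial genes lie around a median of 0.10.

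Genes of ribosomal proteins and of the respiratory chain had slightly lower estimates in knockouts. Of 71 tested genes for cytosolic ribosomal proteins, 66 were below 0, 37 of them at an unadjusted p under 0.05, with a median of -0.25; without KO_197 all 71 were below 0, 33 of them at that p, and the median was -0.23. Among them Rps21 was at 30.5, 56.1 and 43.2 scaled CPM in knockouts, against 63.9, 62, 71.3 and 61.3 in wild types (-0.53, SE 0.15). Rpl39, Rpl18 and Rpl36a had estimates of -0.57 (SE 0.17), -0.37 (0.11) and -0.35 (0.10). Many ribosomal protein genes have processed pseudogenes that can take part of their reads. Of 67 tested nuclear genes of the respiratory chain, 61 were below 0, 27 of them at an unadjusted p under 0.05 (median -0.20; -0.24 without KO_197 and -0.11 without KO_199). Uqcrfs1, the iron-sulfur subunit of complex III, was at 25.7, 50.1 and 36.9 in knockouts, against 51.2, 54, 53.4 and 55.2 in wild types (-0.45, SE 0.16; -0.30 without KO_197). In both lists KO_198 lay nearest to the wild types: the ribosomal sum was 6810, 7578 and 6295 in knockouts, against 7707 to 8385 in wild types, and the respiratory sum 3975, 4330 and 3515, against 4390 to 4647.

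These genes are short, and estimates ran with transcript length and base composition across all genes. The median transcript length was 1106 bases for the ribosomal list and 1046 for the respiratory list, against 3048.5 for all genes tested, and 55 of 71 and 50 of 67 of their genes lay in the shortest of 4 equal groups of genes by length. In that group 165 genes had higher and 298 lower estimates at an unadjusted p under 0.05 (median -0.02), against 285 higher and 94 lower in the longest group (median 0.04). In the highest of 4 equal groups by GC content the counts were 79 higher and 432 lower (median -0.09), against 311 higher and 57 lower in the lowest (median 0.08). The mean of the shortest less that of the longest group, each relative to the mean of all libraries, was -0.10, 0.04 and -0.07 on the log2 scale in knockouts KO_197, KO_198 and KO_199, against 0.01 to 0.05 in wild types. The median GC content was 50.9% for the ribosomal list and 49.7% for the respiratory list, against 49.3% for all genes tested. The part of length and base composition in the 2 lists was not tested.

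Genes of other glia and of stress pathways had mostly lower estimates, few of them at an unadjusted p under 0.05. Of 20 myelin genes 17 were below 0 (median -0.13) and all 20 without KO_197 (median -0.20, 4 at that p), and of 16 microglia genes 13 were (median -0.09; -0.20 without KO_197), 1 at that p. These directions rested on single libraries: without KO_199 the medians were 0.01 for myelin and 0.09 for microglia genes, and without WT_196 they were -0.02 and 0.03. Among 24 tested genes of cholesterol synthesis 21 were below 0, 3 at that p (median -0.16; -0.06 without KO_199). Cyp51, the lanosterol demethylase, was at 47.2, 50.3 and 43.4 scaled CPM in knockouts, against 55.8, 53.3, 67.4 and 59.1 in wild types (-0.33, SE 0.10), and Insig1 and Mvk had estimates of -0.35 (SE 0.14) and -0.32 (SE 0.14). Of 20 genes of endoplasmic reticulum stress 16 were below 0, 3 at that p (median -0.08; -0.04 without KO_198). The chaperone Hspa5 was at 121, 144 and 144 in knockouts, against 180, 152, 176 and 177 in wild types (-0.32, SE 0.10). Of 19 genes of the ATF4 amino acid response 17 were below 0 and 1, Atf4 itself, was at that p (-0.25, SE 0.10); the list median was -0.14 and, without WT_221, -0.08. Among 28 tested glucocorticoid and fasting genes 22 were below 0 (median -0.17; -0.10 without WT_216 and -0.08 without WT_221), and the single gene at that p, the mineralocorticoid receptor Nr3c2, had a higher estimate (0.27, SE 0.10).

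Synapse genes gave 0 of 23 at an unadjusted p under 0.05 in either direction, with a median of 0.04 (-0.06 without KO_197). Of 31 tested transcription factors that mark hypothalamic regions, 6 had lower estimates and 1 a higher one at that p (median 0.01; -0.11 without KO_197). Nkx2-1, needed for the ventral hypothalamus to form, was at 15.8, 17.7 and 17.7 scaled CPM in knockouts, against 23, 19.6, 24.6 and 25.9 in wild types, without overlap (-0.43, SE 0.12). Fezf1, Nkx2-4 and Sox14 had estimates of -0.61 (SE 0.21), -0.70 (0.26) and -1.17 (0.39). The tanycyte and progenitor factor Lhx2 was at 6.79, 5.13 and 5.07 in knockouts, against 6.84, 9.97, 6.78 and 9.58 in wild types (-0.61, SE 0.21). Meis2, the gene of higher estimate, was at 72.1, 62.7 and 53.6 in knockouts, against 34.6, 64.3, 21.6 and 26.3 in wild types (0.75, SE 0.29), with WT_202 among the knockouts. The list of thalamus genes, tissue next to the hypothalamus, was also highest in WT_202, at a sum of 2094, against 1776, 1396 and 1671 in knockouts and 1140 to 1241 in the other wild types; its part in Meis2 was not tested.

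Among the genes of higher estimate in knockouts, those not led by KO_197 or found in other organs came from several pathways. Pde1c, a calcium-dependent phosphodiesterase, was at 82.6, 72.8 and 88.9 scaled CPM in knockouts, against 62.4, 59.8, 58.1 and 51.6 in wild types, without overlap (0.49, SE 0.10). DESeq2 called Pde1c with KO_197 in the fit but not without that library. Ndst4, an enzyme that modifies heparan sulfate, was at 54.3, 46.6 and 49.2 in knockouts, against 34.8, 40.6, 34.4 and 32 in wild types (0.48, SE 0.10). Prlr, the prolactin receptor, was at 38.2, 39.2 and 41.3 in knockouts, against 32.4, 29.6, 27.9 and 25.9 in wild types (0.45, SE 0.10). Prlr is also on the list of choroid plexus genes. Libraries of each group lay close together for Prlr, including KO_199 with its Prl transcripts. Me3, a mitochondrial malic enzyme, was at 83.2, 82.3 and 86.7 in knockouts, against 67.5, 69.1, 59.7 and 64.6 in wild types (0.37, SE 0.09). Mthfs, a folate enzyme, had an estimate of 0.53 (SE 0.12), Tacr1, the substance P receptor, of 0.43 (SE 0.10), Ebf1, a transcription factor, of 0.50 (SE 0.12), Ect2l of 0.81 (SE 0.17) and T2 of 0.58 (SE 0.13). For these 5 the estimates without KO_197 were 0.58, 0.40, 0.48, 0.80 and 0.57.

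The leading genes of KO_197 had large estimates with that library alone. Cdk8 was at 135860 scaled CPM in KO_197, 87.9 in KO_198 and 94.8 in KO_199, against 86.1 to 106 in wild types. The estimate of 8.93 (SE 2.0) was -0.03 (SE 0.10) without KO_197. Those of Sspn, Lars2 and Il31ra were 10.72, 8.68 and 10.46, and -0.69, -0.06 and -0.23 without it. Leaving the 10 leading genes out of the table before normalization left the count of called genes at 0.

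Fto and its neighbours did not part the groups. Fto, an RNA and DNA demethylase (chr8:91313525-91668439, plus strand), was at 340, 358 and 331 scaled CPM in knockouts, against 315, 335, 322 and 290 in wild types. The estimate was 0.12 (SE 0.10) with a 95% interval of -0.09 to 0.33. Rpgrip1l, a gene of the primary cilium that starts beside Fto, was at 49.8, 33 and 41 in knockouts, against 32.8, 33.3, 34.3 and 30.5 in wild types (0.30, SE 0.12), and its estimate was 0.17 without KO_197. The homeobox genes Irx3, Irx5 and Irx6 had estimates of -0.62 (SE 0.28), -0.17 (SE 0.22) and -0.62 (SE 0.36) at levels of 0.531 to 5.75 scaled CPM. Over the 22 tested genes of the region 3 had higher and 2 lower estimates at an unadjusted p under 0.05 (median 0.09; 0.03 without KO_197). Among these, beside Rpgrip1l, were Nlrc5, a regulator of MHC class I genes (1.12, SE 0.26), and Ces1d, a carboxylesterase (0.83, SE 0.38), above, and Irx3, below. Nlrc5 was at 5.09, 3.2 and 4.59 in knockouts, against 2.22, 1.7, 1.49 and 2.17 in wild types, without overlap.

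Alkbh5, the other known demethylase of N6-methyladenosine in RNA besides Fto, was at 77.5, 82.4 and 88.9 scaled CPM in knockouts, against 92.8, 125, 133 and 149 in wild types. The groups did not overlap (-0.58, SE 0.14, adjusted p 0.419 in edgeR's test). DESeq2 called the gene with KO_197 in the fit but not without that library. Of 17 tested RNA methylation genes, only Alkbh5 and Rbm15, a subunit of the methyltransferase complex (-0.33, SE 0.15; -0.21 without KO_197), had an unadjusted p under 0.05. Of 25 genes of fat and ketone use, 3 had higher and 1 a lower estimate at that p. Among the higher ones, Slc16a7, a carrier of lactate and ketones, and Ppargc1a, a coactivator of mitochondrial genes, had estimates of 0.27 (SE 0.11) and 0.26 (SE 0.11), and of 0.25 and 0.13 without KO_197.

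Endothelial genes had mostly higher estimates in knockouts, and this direction rested on KO_199. Of 22 genes 16 had higher estimates, 5 of them at an unadjusted p under 0.05, and 1 a lower one at that p (median 0.10; 0.17 without KO_197, 0.29 without KO_198 and -0.05 without KO_199). Flt1, a receptor of vascular endothelial growth factor, was at 17.3, 18.4 and 35.4 scaled CPM in knockouts, against 16.2, 15.4, 11.4 and 18.2 in wild types (0.68, SE 0.23; 0.23 without KO_199). Tie1 and Adgrl4, both receptors of endothelium, had estimates of 0.65 (SE 0.27) and 0.61 (SE 0.24). Itm2a, the gene of lower estimate, was at 7.92, 8.94 and 7.87 in knockouts, against 16.6, 11.1, 9.81 and 13.5 in wild types (-0.62, SE 0.19). The list summed to 187.8, 193 and 262 in knockouts, against 180 to 221.3 in wild types.

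Transcripts of liver and adrenal cortex were highest in KO_198 and those of the pituitary in KO_199. Of 30 liver genes 12 passed the filter on low counts, mostly through knockouts KO_197 and KO_198, so no count over them is given. Mat1a, the liver methionine adenosyltransferase, was at 3.39, 7.63 and 1.59 scaled CPM in knockouts, against 0.0556, 0.053, 0.71 and 0.223 in wild types (4.11, SE 0.69), and Apob, the lipoprotein component, at 9.62, 24.4 and 0.338, against 0.167, 0.212, 1.68 and 0.835 (4.06, SE 0.97). Serpina1b, of a family of near-identical copies, was at 6.22, 14.4 and 0.579 in knockouts, against 0.212 to 1.16 in wild types. The adrenal enzyme genes Cyp11b1 and Cyp21a1 were at 13 and 14.7 in KO_198, at 1.41 and 1.13 in KO_197 and at 0 in KO_199, against at most 0.111 and 0.129 in wild types. Hsd3b1, of steroid synthesis, was at 1.41, 12.1 and 0.724 in knockouts, against 0.167, 0.159, 0 and 0.334 in wild types (4.90, SE 0.94; 2.37 without KO_198). Of the pituitary genes Gh and Prl the estimates of 5.36 (SE 2.01) and 5.09 (SE 1.84) became -2.01 and -1.71 without KO_199, and Tshb was at 0 in all 7 libraries.

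**Figure D4:**
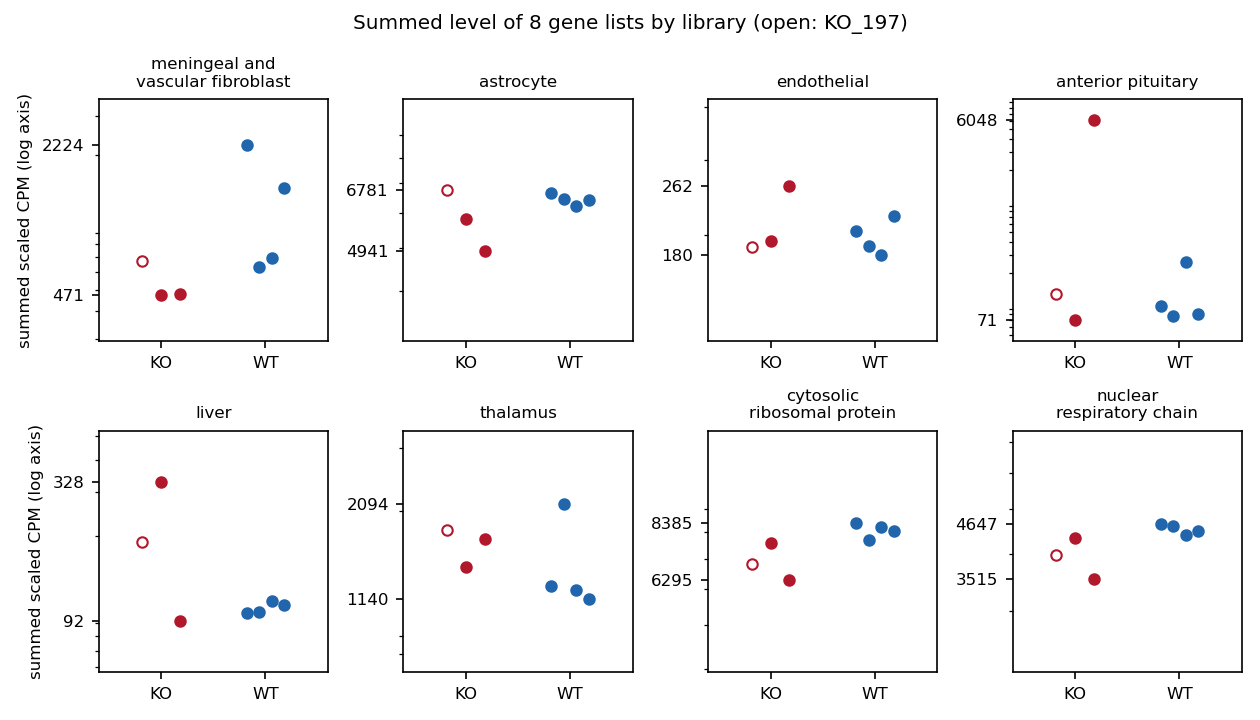
The plot of summed levels shows scaled CPM added over 8 gene lists (log axis, lowest and highest sums marked) in fasted E4 knockouts (left, red, KO_197 open) and wild types (right, blue). Fibroblast genes reach 2224 in WT_196, pituitary genes 6048 in KO_199, liver genes 328 in KO_198 and thalamus genes 2094 in WT_202, while ribosomal protein genes lie at 6295 to 7578 in knockouts and 7707 to 8385 in wild types.

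The same genes were set beside fed E4 mice, which were sequenced in another batch, so that only the genotype estimates within each feeding state were compared. In fed mice 0 of 18430 genes (0%) passed edgeR's test, with 964 at an unadjusted p under 0.05, and DESeq2 called 3. The fed values turned in part on replicate 4 of the fed wild types. Without it edgeR called 0 genes, but 1585 were at that p. The smallest adjusted p of edgeR's test moved from 0.787 to 0.0599. The interaction of genotype and feeding called 0 of 19393 genes (0%), while 2168 (11.2%) had an unadjusted p under 0.05; DESeq2 called 1. Avp had an estimate of -1.75 (SE 0.29) in fasted mice and of 0.65 (SE 0.47) in fed mice, where knockouts ranged from 89.6 to 321 scaled CPM and wild types from 38.2 to 134. The difference of the 2 was -2.41 (SE 0.64, unadjusted p 0.0015, adjusted p 0.445). Gfap gave -1.02 (SE 0.21) fasted and 0.01 (SE 0.20) fed, a difference of -1.03 (SE 0.32, adjusted p 0.445). Pdyn, Oxt, Gjb6 and Mlc1 likewise had fasted estimates below 0 and fed ones of 0.52 (SE 0.21), 0.35 (0.34), 0.20 (0.21) and 0.28 (0.24). The lowest fed wild type was at 32.7 scaled CPM for Gjb6 and 45.5 for Mlc1, against 58.7 and 92.5 in the lowest fed knockout. None of these differences passed the adjustment.

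The genes of smallest interaction p with a symbol of a known gene were Nlrc5, Ect2l, Col27a1, Rgs5 and Hsd3b1. Nlrc5 had an estimate of 1.12 (SE 0.26) fasted and -0.39 (SE 0.17) fed, a difference of 1.5 (SE 0.29), and Ect2l one of 1.08 (SE 0.23). Col27a1, a fibrillar collagen chain, and Rgs5, a regulator of G protein signalling in pericytes, had differences of 0.85 (SE 0.19) and 1.01 (SE 0.23). Col27a1 was at 0.55 (SE 0.16) fasted and -0.31 (SE 0.11) fed. Rgs5 was at 0.40 (SE 0.19) fasted and -0.61 (SE 0.09) fed, and DESeq2 called it in fed mice. Hsd3b1, which rests on KO_198, had a difference of 5.50 (SE 1.24) and was too low in fed mice to be tested there. All 5 had an adjusted p of 0.445 in edgeR's test. Endothelial genes had a median of 0.10 in fasted and -0.42 in fed mice, with 5 higher and 1 lower against 0 higher and 8 lower of 22 at an unadjusted p under 0.05. Flt1, for example, gave 0.68 (SE 0.23) fasted and -0.77 (SE 0.24) fed. Fibroblast genes had medians of -1.20 fasted and -0.02 fed, ribosomal protein genes of -0.25 and 0.33, and respiratory chain genes of -0.20 and 0.25. These lists were not tested as lists.

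**Figure D5:**
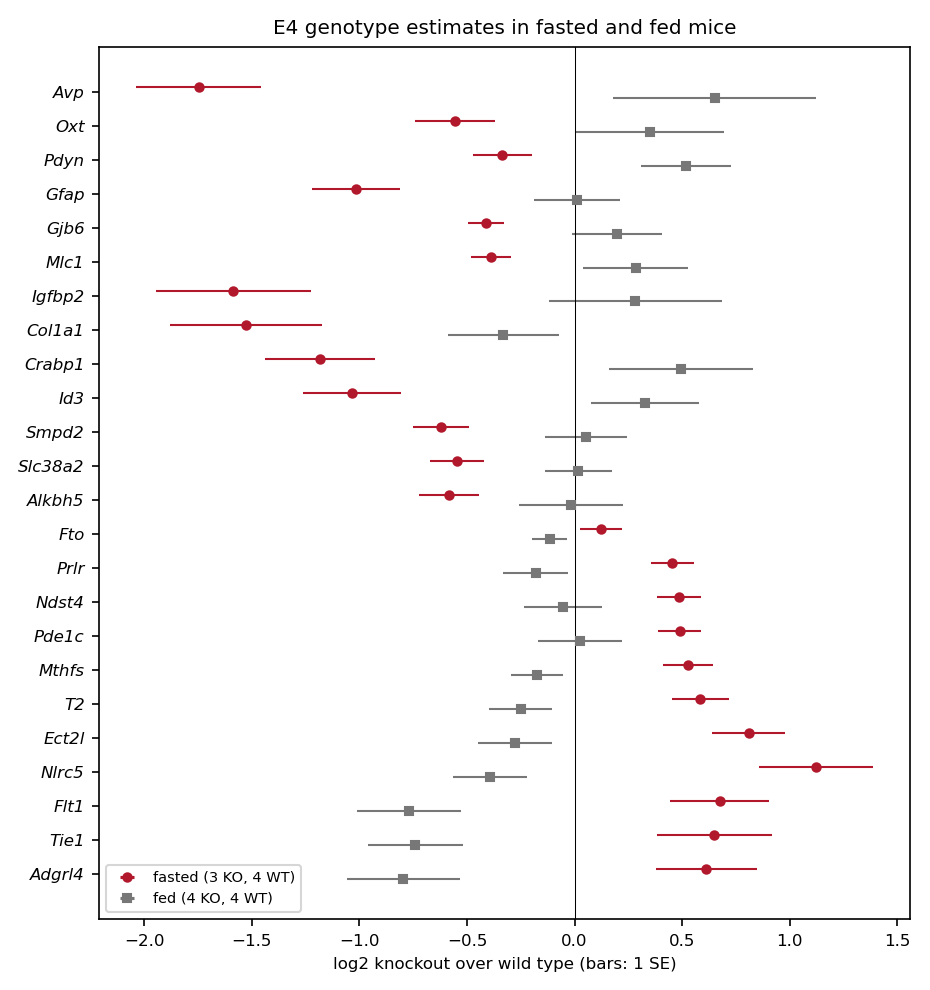
The plot of fasted and fed estimates shows log2 knockout over wild type (x axis, bars of 1 SE) of 24 genes in fasted (red circles, 3 knockouts and 4 wild types) and fed E4 mice (grey squares, 4 and 4). Avp lies at -1.75 fasted and 0.65 fed, Gfap at -1.02 and 0.01, and Flt1 at 0.68 and -0.77; none of the differences passed the adjusted test.

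Set against the mean knockout estimate of the other 4 elements in fasted mice, each with its own wild types, E4 differed for 13 of 15755 genes (0.0825%), all higher. Of these 12 were led by KO_197, with Cdk8 at a difference of 8.72 (SE 1.35), Gnb1l at 7.09, Zc3h7a at 7.17, Arhgap21 at 6.67 and Jarid2 at 5.74. Without KO_197, 0 of 15947 genes (0%) differed, with 1197 at an unadjusted p under 0.05 by edgeR. Hsd3b1 was the remaining gene, at 5.84 (SE 1.07, edgeR adjusted p 0.00911) with all libraries and 6.17 (adjusted p 0.0622) without KO_197, and its level rested on KO_198. Avp, Gfap and Alkbh5 did not pass this test. The difference of Avp was -1.72 (SE 0.48, edgeR adjusted p 0.44): its estimates were -1.75 in E4, against -0.22 in E1, -0.22 in E2, 0.17 in E3 and 0.20 in E5. That of Gfap was -1.13 (SE 0.30, edgeR adjusted p 0.398), with 0.23, 0.17, 0.34 and -0.24 in E1, E2, E3 and E5. That of Alkbh5 was -0.63 (SE 0.15, edgeR adjusted p 0.164), with -0.04 to 0.12 in the other 4. Without KO_197 these differences were -1.54, -1.31 and -0.59, each at an edgeR adjusted p of 0.656.

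In the authors' deposited table of this comparison, 43 of 18093 genes had an adjusted p under 0.05, 38 higher and 5 lower in knockouts. Every adjusted p in the authors' deposited table equalled the p multiplied by the number of genes, up to 1 and within 1%; Benjamini-Hochberg adjustment of the p-values of the authors' deposited table gives 224 genes. The 5 lower genes of the authors' deposited table were Avp, Crabp1, Osr1, Fgfbp1 and Mrgprf. The 38 higher ones of the authors' deposited table included Mat1a, Cyp11b1 and Cyp21a1 of the liver and adrenal lists and Cdk8, Sspn, Lars2 and Il31ra of KO_197. The authors' deposited table names a likelihood ratio in a column; that test, run here on the counts, called 59 genes, 34 higher and 25 lower in knockouts.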

How the data were processed

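Total RNA of the hypothalamus was sequenced, 7 libraries for this comparison. The values used are the raw counts per Ensembl gene that the authors deposited, whole numbers with no normalization. The submitters' processing notes name HISAT2, Bowtie2, edgeR and the mm10 build; versions, the counting tool and the strand setting are not given in the sources used here. The deposited table of 52286 genes lists 37 mitochondrial genes at 0, 17 genes have no symbol, and 0 count columns were left without a sample. The log2 fold changes and p-values credited to the authors' deposited table were made by the authors, per the file headers with a likelihood ratio; their direction, wild type over knockout, was read from the levels in the same table.

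Genotype was tested in R 4.3.3 with edgeR 4.0.16 (quasi-likelihood fit and test, TMM normalization, filterByExpr at a count minimum of 10 and a total minimum of 15, 3 knockouts against 4 wild types), with p adjusted by Benjamini-Hochberg and calls at an adjusted p under 0.05. Depth was 5517552 to 22853472 counts per library and limits the precision of low genes, most in KO_197. Scaled CPM divide counts by the library total times its TMM factor, 0.641 in KO_197 and 1.04 to 1.10 in the others. No pair of libraries of a group agreed within sampling noise. The fed comparison, the interaction over 15 libraries and the contrast with the mean of the other 4 elements (genes listed in all 5 fasted tables) used the same test.

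The members, the 42 gene lists, the tests and the rule for named genes were chosen with earlier results of these data known. The rule names up to 12 genes per direction by smallest p whose mean log2 CPM is 1 or more (predicted models left out), Fto, Rpgrip1l and the Irx genes, peptide genes whose mean log2 CPM is 4 or more, up to 4 members per direction of each list at an unadjusted p under 0.05, and the 10 leading genes of KO_197. Vip, Crh, Agrp, Alb, the adrenal cortex list and its genes, Ebf1, Tacr1, Me3, genes called only by DESeq2 and those of the authors' deposited table were named after their values were seen, as were the likelihood ratio test and the fits by length and GC content, which used 17896 genes with a transcript in GENCODE M21. Alternatives were RLE normalization, DESeq2 1.42.0, limma 3.58.1 with voom quality weights, no filter, other sets of libraries in the fit and each library left out. Some genes that the rule names are not reported here.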

Additional observations from a re-analysis of the deposited data

Results flagged for a closer look

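The 4 wild types were examined for a library far from the other 3 in 145 genes and 43 summed lists, and 14 of these were past the limit. Chance alone puts about 5% past it. The limit sets the gap to the nearest library against the range of all 4, so far does not mean a large change here. Arhgap21 was at 250 in WT_202 and 260 in the other wild types. The autophagy and FoxO sum was 1897 in WT_221, against 1839 to 1846 in the others. By gene, WT_202 was far below the other wild types for Id3 (9.39 scaled CPM), Otp (41.8), Trh (41.8), Hspa5 (152) and Arhgap21 (250). WT_216 was far above the others for Gh (105) and Jarid2 (114). By summed list, WT_202 was far below the others for vasopressin neuron and osmotic response genes (1623 scaled CPM) and cold-inducible and torpor-linked genes (636), and far above them for thalamus genes (2094). WT_196 was far below for thyroid hormone handling genes (783) and far above for tanycyte genes (551). WT_216 was far above for anterior pituitary genes (259) and WT_221 for autophagy and FoxO genes (1897). Groups of 3, such as the knockouts, were too small for this check.

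The genotype estimate of 13 genes differed between E4 and the mean of the other 4 elements in fasted mice by edgeR's test of the difference. Those of Cdk8 (8.72 on the log2 scale), Gnb1l (7.09), Arhgap21 (6.67), Zc3h7a (7.17), Jarid2 (5.74), Peak1 (6.1), Gphn (4.33), Camk1d (4.83), Lars2 (8.23), Tmtc2 (3.94), Sspn (9.93) and Il31ra (9.36) lay between -1.47 and 0.38 without KO_197. That of Hsd3b1 was 5.84, and 6.17 without KO_197.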

How the results depend on the processing

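The fasted E4 comparison called 0 genes by limma with voom quality weights, and 0 by edgeR with RLE normalization, without the 10 leading genes, with all 15 E4 libraries in the model and without KO_197 or any of the 4 wild types, with 941 to 1837 genes at an unadjusted p under 0.05. It called 19 by DESeq2, 59 by the likelihood ratio test, 169 with no filter on low counts and 13 with all fasted libraries in the model; the cause was not tested. Leaving out each library in turn gave 0 to 23. Without KO_197, DESeq2 called 13. The fed comparison called 3 by DESeq2, and the interaction 1 by DESeq2 and 0 to 1 with a library left out. The contrast with other elements called 1 by DESeq2 and 0 to 28 with a library left out; 0 was without KO_197 and 28 without KO_198. Fed knockouts and wild types share replicate numbers, but the correlations of same-numbered deviations were 0.188, 0.0449, -0.137 and 0.222, and 3 of 8 libraries correlated best with their own number; with the replicate block edgeR called 0 genes, with 902 at an unadjusted p under 0.05. No paired analysis was possible because the fasted groups share no numbers.

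Of 2499 alternative values for 178 gene estimates, 2335 kept direction and side of the threshold, 124 passed it only in the alternative, 6 only in the main setting and 34 changed sign, in 25 estimates. With all fasted libraries Penk was at 0.0069, and with voom Gh was at -0.15 and Prl at -0.40. Leaving out a library reversed, with ranges on the log2 scale, Arhgap21 (-0.036 to 7.33; against other elements -0.10 to 7.25), Cdk8 (-0.030 to 9.51; -0.23 to 9.31), Zc3h7a against other elements (-0.15 to 7.76), D130009I18Rik (-1.62 to 12.39), Il31ra (-0.23 to 11.04), Lars2 (-0.059 to 9.26), Peak1 (-0.0053 to 6.81), Sspn (-0.69 to 11.31), Gh (-2.01 to 7.83), Prl (-1.71 to 7.04), Pomc (-1.11 to 3.70) and Tbx19 (-0.58 to 2.42). It also reversed Avp in fed mice (-0.00062 to 0.84), Gfap in fed mice (-0.18 to 0.14), Gjb6 in fed mice (-0.0017 to 0.30), Npy (-0.85 to 0.053), Sst (-0.48 to 0.029), Tac2 (-0.11 to 0.48), Pnoc (-0.078 to 0.33), Penk (-0.094 to 0.14), Pmch (-0.22 to 0.064), Cbln4 (-0.28 to 0.033) and Nxph4 (-0.21 to 0.0044). Of 396 alternative medians of 44 sets of genes (the lists and all genes tested), 41 moved by more than the spread between wild types.

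With 3 knockouts, 1 of them shallow, 1 with pituitary and 1 with liver and adrenal transcripts, no knockout library is free of a feature that moves some result. Low genes such as Irx6 rest on few counts in KO_197.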

Other observations

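Glial and neuronal groups not described so far gave few genes at an unadjusted p under 0.05, and none passed edgeR's adjusted test. Of 27 genes of motile cilia, which line the ventricle on ependymal cells, 4 had higher and 1 a lower estimate at that p, with a median of 0.11 and, without KO_197, of -0.06 (0.20 without KO_199). Dnah9, a dynein heavy chain, was at 58, 53 and 66.5 scaled CPM in knockouts, against 53.7, 42.3, 51.3 and 39.6 in wild types (0.34, SE 0.12), so KO_198 reached below the highest wild type. Of 16 tested tanycyte genes, 3 had lower estimates at that p: Vim, Lhx2 and Rax, a homeobox gene of tanycytes at 0.848, 0.369 and 1.93 in knockouts, against 2.67, 1.33, 2.45 and 4.34 in wild types (-1.31, SE 0.54). Of 15 tested genes of oligodendrocyte precursors, Lhfpl3 had a higher estimate (0.42, SE 0.18) and Bmp4 a lower one (-0.85, SE 0.38). Among 17 striatum genes 4 had higher estimates. Drd2, a dopamine receptor also on the list of anterior pituitary genes, was at 24, 20.1 and 46 in knockouts, against 20.5, 24.1, 16.8 and 18.4 in wild types (0.62, SE 0.24). KO_199, the library with pituitary transcripts, was alone far above the rest for Drd2, and without it the estimate was 0.11. Of 19 tested cortex and hippocampus genes, Nrgn had a lower estimate (-0.29, SE 0.12), and of 16 thalamus genes 0 were at that p.

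Of 22 collagen genes, some of them also on the fibroblast list, 2 had higher and 6 lower estimates at that p. The list median was -0.08, and -0.02 without KO_197. Col11a1, of the higher ones, was at 24.3, 26.9 and 31.9 scaled CPM in knockouts, against 20.7 to 23.9 in wild types (0.30, SE 0.11). Col3a1, a chain of type III collagen, was at 3.11, 1.15 and 1.54 in knockouts, against 9.07, 2.23, 2.97 and 4.29 in wild types (-1.53, SE 0.50), highest in WT_196 and WT_221. Col6a1 was at 11.9, 13.6 and 8.64 in knockouts, against 20.2, 19.1, 15.1 and 17.7 in wild types (-0.68, SE 0.17). Of 16 tested choroid plexus genes, 1, Prlr, had a higher estimate and 2, Lbp and Slc13a4, lower ones at that p (list median 0.26). Slc13a4, a sulfate carrier also found in meninges, was at 9.33, 1.93 and 1.98 in knockouts, against 38.5, 4.77, 5.55 and 14.1 in wild types (-2.39, SE 0.78). Of 17 tested pericyte and smooth muscle genes 14 had estimates below 0, with a median of -0.26 (-0.12 without KO_199) and 1 gene at that p in each direction.

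Immediate early genes, which answer neuronal activity, had 2 of 22 higher at that p, Nr4a1 (0.40, SE 0.15; 0.26 without KO_197) and Nr4a2 (0.53, SE 0.21). Of 17 tested clock genes 2 were lower, Dbp (-0.38, SE 0.14) and Bhlhe41 (-0.23, SE 0.09), and of 19 tested heat shock genes 2 were lower, Hspb8 (-0.61, SE 0.17) and Fkbp4 (-0.21, SE 0.09). Peptide processing genes had Chgb higher (0.32, SE 0.14) and Pcsk1n (-0.47, SE 0.18) and Resp18 (-0.23, SE 0.10) lower among 19. Single genes at that p were Hr of 11 tested thyroid hormone genes (-0.48, SE 0.18; -0.34 without KO_197), Map1lc3a of 20 autophagy genes (-0.36, SE 0.11) and Ifi27l2a of 23 interferon genes, at no more than 1.84 scaled CPM in any library. Ppargc1a was the single gene of 13 cold-inducible and torpor-linked genes at that p. Of 19 tested genes of energy sensing receptors and signalling 0 were at that p (median -0.03), and of 5 fat, 9 skeletal muscle and 6 red blood cell genes that passed the filter 0 were.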
